A study of Saccharomyces cerevisiae with 4 samples.

Results

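The phosphate starvation genes described here are 9 reading frames of budding yeast, Saccharomyces cerevisiae, taken by systematic name from a table of 6207 reading frames. They are PHO84 (YML123C), SPL2 (YHR136C), PHO5 (YBR093C), PHO3 (YBR092C), PHO11 (YAR071W), PHO12 (YHR215W), VTC1 (YER072W), VTC3 (YPL019C) and VTC4 (YJL012C). All 9 had a log ratio on all 4 arrays, as did 3080 reading frames in total, and the 9 were therefore tested with no loss to the filter on empty cells. Every culture was a wsc1 mutant in the BY4741 background. WSC1 codes for a cell surface protein that senses stress on the wall, and no strain with the gene intact was used here. The mutant was grown in YEPD, a rich medium, at 24 °C, and each culture was split into a part without Congo Red and a part with 30 µg/ml Congo Red, a dye that binds chitin and glucan in the cell wall, for 4 h. RNA of both parts was labelled with different dyes and hybridised to the same array. Arrays 1 and 3 carried the Congo Red RNA in Cy3, the dyes were swapped on arrays 2 and 4, and the 4 arrays stand for 2 cultures.

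When phosphate is scarce, the inhibitor Pho81 holds the kinase complex of Pho80 and Pho85 inactive, and the transcription factor Pho4, no longer phosphorylated, enters the nucleus and acts with Pho2. Its targets code for a high-affinity phosphate importer, for secreted acid phosphatases that free phosphate outside the cell, and for the vacuolar transporter chaperone (VTC) complex, which makes polyphosphate as a store. The list is not uniform in this respect. PHO3 codes for the constitutive acid phosphatase, which is known for repression by thiamine rather than for induction by low phosphate.

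The sign of the log ratios is likely rather than settled, because no source used here names the numerator. The values were read as Congo Red over untreated on every array, and as log2. That reading rests on cell wall integrity targets, a set of genes known to rise when the wall is disturbed. Of 25 such genes with 4 values, 23 had 4 values above 0 as deposited. When arrays 2 and 4 are turned in sign, 0 of the 25 keep 1 sign throughout, which for those 23 follows from their 4 values above 0. Their direction set the sign and is no result. Across all tested reading frames, arrays of the same dye orientation correlated with Pearson r of 0.64 (arrays 1 and 3) and 0.71 (arrays 2 and 4). Arrays of opposite orientation had a mean r of only 0.10, with pairs from -0.05 to 0.33. The Spearman correlations of those opposite pairs ran from -0.26 to 0.10, so some pairs were negative. Genes are not independent replicates, and these correlations are descriptions. Array medians lay between -0.14 and -0.08 log units and 19.6 to 47.6% of cells were empty. The WSC1 row held 0 values, so the mutation was not checked on its own transcript. A table of ratios shows no level. All 5 markers of a mating type a strain (STE2, MFA1, MFA2, BAR1 and AGA2) had 4 values, and of 4 markers of the alpha type, 2 had 0 values, SAG1 had 1 and MF(ALPHA)2 had 3.

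The comparison asks how transcripts of phosphate acquisition and storage differ between the Congo Red and the untreated part of a wsc1 culture. None of the 9 genes passed the test under both possible pairings of arrays into cultures, although all 9 had a mean log ratio below 0. The lowest were the paralogs PHO12 and PHO11, at -0.60 and -0.59 log units, or 65.8% and 66.4% of the untreated level if the log base is 2. VTC3 and VTC4 had ratios of large size whose sign followed the dye. The remaining 5 had means between -0.35 (PHO3) and -0.07 (SPL2). Limma on culture means with Benjamini-Hochberg adjustment over 3080 reading frames called 0 of the 9, beside a background of 2.6% called in either direction and 1.07% called lower. At an unadjusted p below 0.05 it passed 4 of the 9 (PHO84, PHO3, PHO11 and PHO12), all with means below 0, beside 18.4% of all reading frames passing with a mean below 0. Which arrays share a culture is unknown, and the larger p of both possible pairings was kept. With arrays 1 and 4 as a culture and arrays 2 and 3 as the other, the fit on culture means called 4 of the 9, beside 25.6% of all reading frames, and these were PHO84 (adjusted p = 0.0488), PHO3 (adjusted p = 0.0261), PHO11 (adjusted p = 0.015) and PHO12 (adjusted p = 0.00758). The other pairing, arrays 1 and 2 together, gave 0 of the 9, beside 2.73% of all reading frames. A mean below 0 was itself common, at 67.2% of all reading frames. RNA came from whole cultures, so fewer cells with a transcript and less of it per cell cannot be told apart. The median of the 9 means was -0.19, against -0.10 over all reading frames tested. After each array was centred on its median, these medians were -0.07 and 0.02, and the means of PHO5, VTC1 and VTC3 moved from -0.15, -0.19 and -0.13 to -0.03, -0.07 and -0.0068. Those of SPL2 and VTC4 moved above 0, to 0.053 and 0.040. After centring, 7 of the 9 means were below 0, beside 46.1% of all reading frames.

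**Figure D1:**
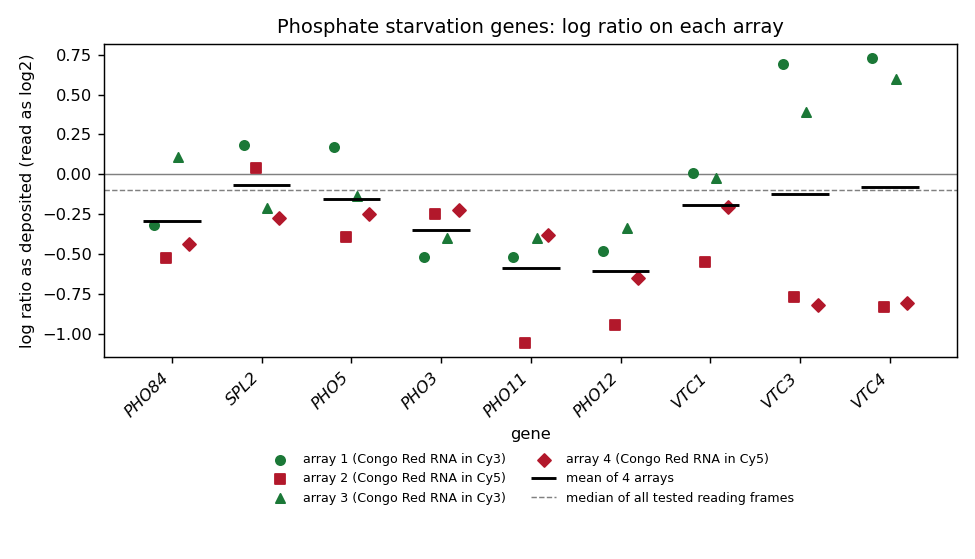
Log ratio (vertical axis, read as log2) of each of the 9 phosphate starvation genes (horizontal axis, ordered by role) on each of the 4 arrays, in green for Congo Red RNA in Cy3 and red for Cy5, with black bars at the mean, a solid line at 0 and a dashed line at the median of all tested reading frames (-0.10). PHO3, PHO11 and PHO12 lie below 0 on all 4 arrays, and VTC3 and VTC4 lie above 0 on arrays 1 and 3 and below 0 on arrays 2 and 4.

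Among the secreted acid phosphatases, PHO12 gave log ratios of -0.48, -0.95, -0.34 and -0.65 on arrays 1 to 4. PHO11 gave -0.52, -1.06, -0.40 and -0.38. Both genes code for minor repressible acid phosphatases, and in both the value on array 2 was the lowest and no array reached 0. The mean of PHO12 was -0.60 ± 0.10 (moderated SE, n = 2 cultures, limma adjusted p = 0.0673), with a 95% interval of -0.87 to -0.34. That of PHO11 was -0.59 ± 0.13 (adjusted p = 0.102), with an interval of -0.93 to -0.25. Of all tested reading frames 2.01% had a mean lower than that of PHO12 and 2.21% lower than that of PHO11. Both stayed below the median of every array, and after centring each array on its median the means of PHO11 and PHO12 were -0.47 and -0.48.

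PHO11 and PHO12 are near-identical copies. The difference of PHO11 minus PHO12 was -0.04, -0.11, -0.07 and 0.27 on arrays 1 to 4, a mean of 0.01 ± 0.17 (SD, 4 arrays). No source used here names the kind of probe, so how far each spot also bound cDNA of the other copy was not tested, and the pair may amount to a single measurement. In the gene table of the S288C assembly R64, PHO11 is the last protein-coding gene of chromosome I, and PHO12 is the fourth from an end of chromosome VIII.

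PHO5, coding for the main repressible acid phosphatase and the classical reporter of Pho4 activity, gave 0.17, -0.39, -0.13 and -0.25. Its sign was not the same on all arrays and its mean was -0.15 ± 0.09 (adjusted p = 0.312). The interval ran from -0.39 to 0.08 and overlaps those of PHO12 (-0.87 to -0.34) and PHO11 (-0.93 to -0.25). PHO11 lay below PHO5 on every array, with PHO11 minus PHO5 at -0.69, -0.67, -0.27 and -0.13. PHO12 minus PHO5 was also below 0 on all 4 arrays, with a mean of -0.45 ± 0.20 (SD). These differences between genes are descriptions and were not tested. How far the spots of PHO5 and PHO3 bound cDNA of other acid phosphatase genes was not tested either.

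PHO3 lies next to PHO5 on chromosome II and gave -0.52, -0.25, -0.40 and -0.22. It was the steadiest of the 9, with an SD over arrays of 0.14 against a median of 0.27 over all reading frames. Its mean was -0.35 ± 0.09 (adjusted p = 0.131), with an interval of -0.58 to -0.11. PHO5 minus PHO3 was 0.69 on array 1 but -0.14 on array 2, 0.26 on array 3 and -0.03 on array 4, so these neighbours did not keep a common order. The constitutive enzyme gene therefore had the lower mean of this adjacent pair, with values that overlap.

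PHO84 codes for the high-affinity phosphate importer of the plasma membrane. It gave -0.32, -0.53, 0.11 and -0.44, with array 3 alone above 0. The mean was -0.29 ± 0.11 (adjusted p = 0.182), the interval -0.57 to -0.01. After each array was centred on its median the mean was -0.17 (adjusted p = 0.337). SPL2 codes for a small protein that lowers phosphate uptake through the low-affinity transporters. Its log ratios were 0.18, 0.04, -0.21 and -0.27, so arrays 1 and 2 lay above 0 and arrays 3 and 4 below. With a mean of -0.07 ± 0.12 (adjusted p = 0.734) and an interval of -0.39 to 0.25, SPL2 was the member nearest to 0, and its mean turned to 0.053 after centring.

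The genes of the VTC complex differed in how far their ratios followed the dye, and none was called by limma on culture means. VTC4, which codes for the polyphosphate polymerase subunit, gave 0.73, -0.83, 0.60 and -0.81 on arrays 1 to 4. VTC3, which codes for an accessory subunit, gave 0.69, -0.77, 0.39 and -0.82. In both, the arrays with Congo Red RNA in Cy3 lay above 0, those with Congo Red RNA in Cy5 lay below 0, and the orientations did not overlap.

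As deposited, these values averaged to -0.08 ± 0.09 for VTC4 (adjusted p = 0.574) and to -0.13 ± 0.10 for VTC3 (adjusted p = 0.416). The dye effect is the distance of the mean of arrays 1 and 3 from the mean of all 4 arrays, above 0 where the ratio is higher with Congo Red RNA in Cy3. In a limma fit to the 4 arrays singly that includes dye orientation, called the dye-term fit from here on, it was 0.74 ± 0.07 for VTC4 (adjusted p = 0.0164) and 0.67 ± 0.08 for VTC3 (adjusted p = 0.0218). These were 2 of the 9 genes called for the dye effect, beside 16% of all reading frames. In size the dye effect of VTC4 exceeded that of 98.4% of reading frames, and that of VTC3 exceeded 97.3%. VTC4 minus VTC3 was 0.04, -0.06, 0.21 and 0.01, so the pair moved within 0.21 log units of each other on every array.

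VTC1, coding for the small membrane subunit of the same complex, gave 0.01, -0.55, -0.02 and -0.20. Arrays 1 and 3 were close to 0 and arrays 2 and 4 lower, and the sign did not alternate with the dye. Its mean was -0.19 ± 0.09 (adjusted p = 0.258) and its dye effect 0.18 ± 0.09 (adjusted p = 0.181) was not called.

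**Figure D2:**
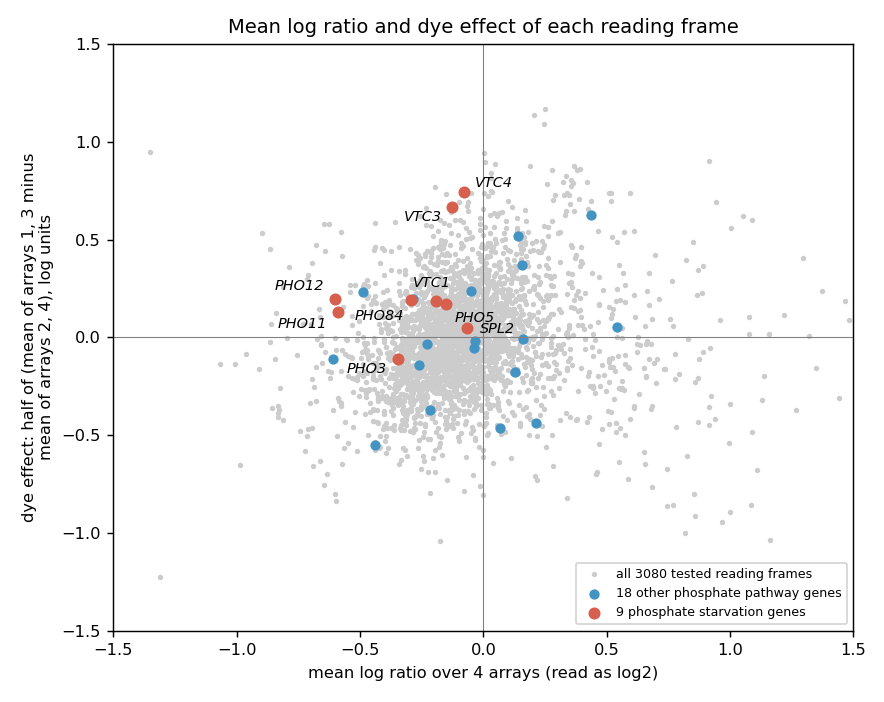
Mean log ratio over the 4 arrays (horizontal axis, read as log2) against the dye effect (vertical axis, log units) for 3080 reading frames in grey, 18 other phosphate pathway genes in blue and the 9 phosphate starvation genes in red, with 14 reading frames outside the axes at 1.5. PHO11 and PHO12 stand at means of -0.59 and -0.60 with dye effects of 0.13 and 0.19, whereas VTC3 and VTC4 stand near a mean of 0 with dye effects of 0.67 and 0.74.

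Read by sign, 3 of the 9 genes (PHO3, PHO11 and PHO12) were below 0 on all 4 arrays, beside 21% of all reading frames. The same 3 were below the array median on all 4 arrays, beside 8.51%. VTC3 and VTC4 alternated with the dye, above 0 on arrays 1 and 3 and below on arrays 2 and 4, beside 16.4% of all reading frames. PHO84, PHO5 and VTC1 had 3 arrays below 0 and SPL2 had 2. The median of the 9 genes was 0.01, -0.55, -0.13 and -0.38 on arrays 1 to 4, against -0.13, -0.12, -0.06 and -0.05 for all tested reading frames. On arrays 2 and 4, 8 and 9 of the genes were below the array median, and on arrays 1 and 3, 4 and 5. PHO3 ran the other way, with a mean of -0.46 on arrays 1 and 3 and -0.24 on arrays 2 and 4. A dye effect of equal size in both orientations cancels in a mean over 2 arrays of each orientation. Any other part of the dye in the means was not tested.

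Because the sign of the ratios is not stated, the 9 genes were also fitted with arrays 2 and 4 turned. By construction the mean is then the dye effect above, and which condition is higher is unknown. VTC4 and VTC3 then had the largest sizes, 0.74 (95% interval 0.51 to 0.97) and 0.67 (0.41 to 0.92), each with adjusted p = 0.0832 in limma on culture means. PHO12 and PHO11 had sizes of 0.19 and 0.13, with intervals that include 0. That fit called 0 of the 9 genes and 0% of all reading frames, while 27.8% passed an unadjusted p below 0.05, among them VTC3 and VTC4. The PHO11 and PHO12 pair thus had the largest sizes as deposited, and the VTC3 and VTC4 pair had the largest sizes after turning. The cell wall integrity targets were used to choose the deposited reading, so they lend neither pair further weight. Of 21 reading frames at least 1 log unit from 0 on every array, 15 kept 1 sign as deposited and 0 alternated with the dye.

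**Figure D3:**
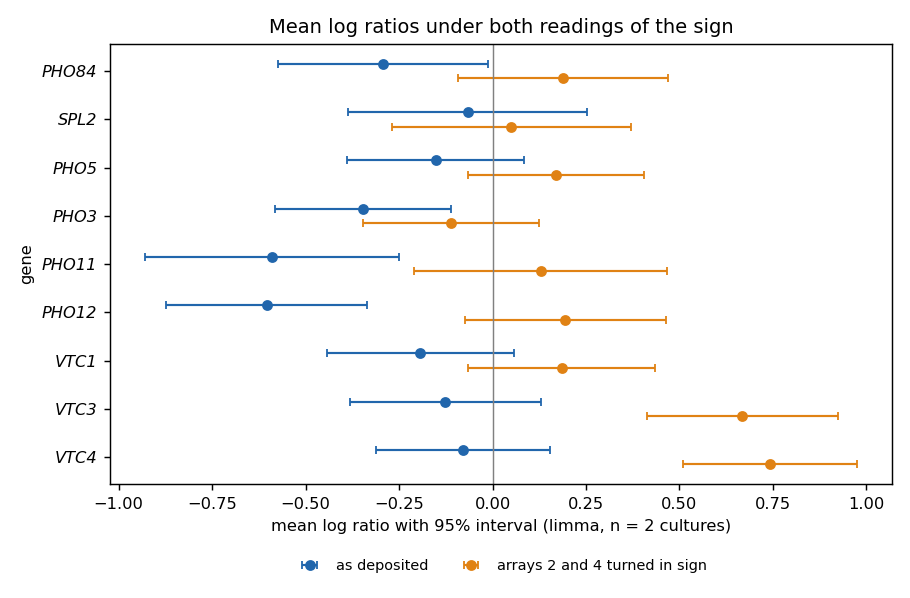
Mean log ratio with its 95% interval (horizontal axis, limma, 2 cultures) for each of the 9 genes (vertical axis), in blue as deposited and in orange with arrays 2 and 4 turned in sign. As deposited, the intervals of PHO84, PHO3, PHO11 and PHO12 lie below 0, and after turning only those of VTC3 and VTC4 lie away from 0.

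The calls of these genes depended on the fit. The dye-term fit, which treats arrays rather than cultures as replicates and adds a term for the dye, called PHO12 (adjusted p = 0.0169), PHO3 (adjusted p = 0.0413) and PHO11 (adjusted p = 0.0441), all lower with Congo Red, beside 6.46% of all reading frames called lower. Single arrays without that term gave 0 of the 9, beside 1.17% of all reading frames, with adjusted p = 0.113 for PHO12 and 0.148 for PHO11. The dye-term fit called 4 of the 9 without array 3, beside 26% of all reading frames tested, and 2 without array 1, beside 9.98%. It called 0 of the 9 without array 2 or array 4, beside 0.375% and 0.81%.

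A total of 40 other genes of phosphate signalling, transport and storage were set beside the 9, in 6 lists that share some members. Of these, 18 had a value on all 4 arrays and 0 were called by limma on culture means, while 6 passed an unadjusted p below 0.05, beside 26.2% of all reading frames. Means were above 0 for 8 and below 0 for 10, and the median was -0.04. The dye-term fit of limma called 4 of the 18, PHO89, PPN2, PHO85 and PIC2, beside 10.4% of all reading frames.

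Of 13 other Pho4 targets, 8 were tested, with 0 higher, 0 lower and a median of 0.05. PHO89, coding for a sodium-coupled phosphate importer that is also known as a target of calcineurin signalling, gave 0.72, 0.62, 0.46 and 0.36. It lay above 0 on every array, unlike PHO84, with a mean of 0.54 ± 0.11 (adjusted p = 0.0874). PHO8, coding for the vacuolar alkaline phosphatase, gave -0.06, -0.56, -0.12 and -0.40, all below 0, with a mean of -0.29 ± 0.09 (adjusted p = 0.157). These known targets of the same factor therefore lay on opposite sides of 0, and neither was called.

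Of 15 signalling genes, 4 were tested and 0 were called, with a median of -0.33. PHO85, coding for the kinase, gave -1.16, 0.03, -0.82 and 0.19. Its sign followed the dye in the sense opposite to that of VTC3 and VTC4, with a mean of -0.44 ± 0.11 (adjusted p = 0.118). SIW14, coding for a phosphatase of inositol pyrophosphates, gave -0.91, -1.11, 0.40 and -0.33, with array 3 alone above 0 and a mean of -0.49 ± 0.26 (adjusted p = 0.283). PHO4 had a single value, -0.33 on array 4. PHO81 had -0.50 on array 3 and -0.27 on array 4, and PHO80 had -0.76, -0.43 and 0.12 on arrays 2 to 4. The factor, its kinase inhibitor and the cyclin were therefore not tested.

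Of 11 transport genes, 5 were tested and 0 were called, with a median of 0.07. PIC2, coding for a mitochondrial phosphate carrier, gave -0.70, -0.66, -0.74 and -0.34. It was below 0 on all arrays, with a mean of -0.61 ± 0.09 (adjusted p = 0.0597) as low as that of PHO12. Of 6 polyphosphate genes outside the 9, 4 were tested and 0 were called, with a median of 0.04. PPN2, coding for a vacuolar endopolyphosphatase, gave 1.09, -0.26, 1.03 and -0.12, with a mean of 0.44 ± 0.09 (adjusted p = 0.0889). Its sign followed the dye as that of VTC3 and VTC4 did. VTC2, coding for another accessory subunit of the VTC complex, gave -0.53, -0.05, -0.28 and -0.19, below 0 on all 4 arrays, with a mean of -0.26 ± 0.09 (adjusted p = 0.172).

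Of 8 genes outside the 9 that code for proteins with an SPX domain, a phosphate-sensing module, VTC2 alone had 4 values. Of 4 other phosphatases 3 were tested and 0 were called, with a median of -0.04. PHM8, coding for a phosphatase of nucleotides and lysophosphatidic acid, gave 0.45, -0.38, 0.60 and -0.05, and its mean was 0.16 ± 0.10 (adjusted p = 0.359).

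**Figure D4:**
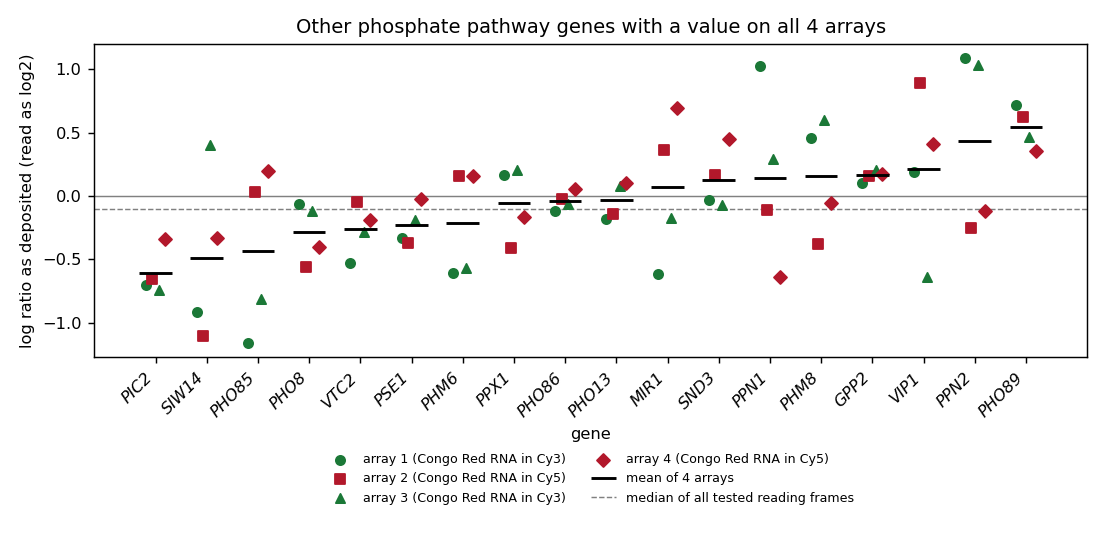
Log ratio (vertical axis, read as log2) on each of the 4 arrays for the 18 other phosphate pathway genes with 4 values (horizontal axis, ordered by mean), in green for Congo Red RNA in Cy3 and red for Cy5, with black bars at the mean and a dashed line at the median of all tested reading frames. PIC2 at -0.61 and PHO89 at 0.54 mark the ends of the range and keep a single sign, whereas PHO85 and PPN2 alternate with the dye.

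The reading frames whose 4 values lay closest to the median of the 9 genes on each array were GCS1, PHO8, NUS1, RNA1 and MEH1, at Euclidean distances of 0.06 to 0.09 log units over the 4 arrays. The 9 genes themselves lay farther from that median, at 0.21 (VTC1) to 1.15 (VTC4), so it is a composite and not the profile of any member. PHO8 is the only phosphate gene among the 5 reading frames named. GCS1 gave 0.04, -0.58, -0.10 and -0.38, which follows the order of the members' medians.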

How the data were processed

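The authors deposited 1 log ratio per reading frame and array from 2-channel arrays, read here as log2, with arrays 1 to 4 numbered as in the labels. Per the labels, cDNA was made from total RNA with Cy5 and Cy3. No source used here states the log base, numerator, normalization, scanner, kind of probe or which arrays share a culture. The labels and the design text differ in the growth time before Congo Red.

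Of 6209 rows 2 controls were left out, and 5654 reading frames matched a symbol in RefSeq R64. The replicate is the culture. Both pairings of opposite-dye arrays (1 with 2 and 3 with 4, or 1 with 4 and 2 with 3) were averaged and fitted with limma 3.58.1 in R 4.3.3 (lmFit, eBayes), two-sided, keeping the larger p and SE, at a Benjamini-Hochberg threshold of 0.05. Because variance is pooled over genes, SEs near 0.09 sit at this fit's floor and do not measure a gene's own 2 cultures. The fits were also run on simulated data with 4 independent arrays and no variance shared within a culture. That run therefore does not check the calls for a design of 2 cultures. On the real data, 12 alternatives were run. Array number limits precision.

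Named are the 9 members, PHO4, PHO80, PHO81, PHO85 and PHO89, the 2 tested genes of largest absolute mean per list, and the 5 closest profiles. The members and lists were chosen with earlier results of these data known. Genes named outside this rule were chosen after their values were seen.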

Additional observations from a re-analysis of the deposited data

Results flagged for a closer look

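The log ratio differed between the dye orientations for 7 of the 27 phosphate genes tested, in the dye-term fit of limma. The dye effects were 0.74 for VTC4 (adjusted p = 0.0164), 0.67 for VTC3 (adjusted p = 0.0218), 0.62 for PPN2 (adjusted p = 0.0218) and 0.37 for PHM8 (adjusted p = 0.0457), with higher ratios where Congo Red RNA was in Cy3. They were -0.55 for PHO85 (adjusted p = 0.025), -0.37 for PHM6 (adjusted p = 0.0279) and -0.46 for MIR1 (adjusted p = 0.0457), with higher ratios where it was in Cy5. PHM6 and MIR1 were chosen after their values were seen. Over all reading frames 16% were called for a dye effect. No gene had a single array standing apart by Dixon's limit for 4 values.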

How the results depend on the processing

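With arrays 1 and 4 as a culture, limma called 787 reading frames in place of 80. Among them were 4 of the 9 genes, PHO84 (-0.29), PHO3 (-0.35), PHO11 (-0.59) and PHO12 (-0.60). The lists of other Pho4 targets, signalling, transport, polyphosphate, SPX and phosphatase genes had 8, 4, 5, 4, 1 and 3 tested. Of these, 2, 2, 2, 1, 0 and 1 were called. Arrays 1 and 2 as a culture gave 84 reading frames and 0 of the 9. The dye-term fit called 320 reading frames and 3 of the 9, PHO3, PHO11 and PHO12 at the same means, with 1, 1, 2, 1, 0 and 0 in those lists. Single arrays without the term gave 36 and 0 of the 9. Centring each array, which raised the median of all reading frames by 0.12, gave 32 (1.04%) and 0 of the 9. The median over the 9 was then -0.07, with SPL2 at 0.053 and VTC4 at 0.040. Centring with scaling gave 129 (4.19%) and 1 of the 9, PHO12 at -0.51, with SPL2 at 0.022 and 1, 0, 1, 1, 0 and 0 in the lists. Accepting 3 values needs the dye-term fit, because 3 arrays cannot form 2 culture means of both dyes. It gave 214 of 3677 reading frames (5.82%) and 1 of the 9, PHO12 at -0.60. In the lists it called 1, 0, 2, 1, 0 and 0 of 8, 6, 7, 5, 3 and 3 tested. Arrays 2 and 4 turned gave 0 reading frames and a median of 0.18 over the 9, with PHO84 at 0.19, PHO5 at 0.17, PHO11 at 0.13, PHO12 at 0.19, SPL2 at 0.050, VTC1 at 0.18, VTC3 at 0.67 and VTC4 at 0.74. PHO3 kept its sign there, at -0.11. Why a gene passes under one and not under another was not tested.

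Leaving out an array changes the fit as well, to the dye-term fit on 3 arrays. It gave 12 of 3198 reading frames (0.375%, without array 2) to 805 of 3098 (26%, without array 3), and 0 to 4 of the 9. The lists had 0 to 2, 0 to 3, 0 to 2, 0 to 2, 0 to 1 and 0 called. Tested in them were 8, 4, 5, 4, 1 and 3 genes, or 8, 6, 7, 5, 3 and 3 without array 1. Means ranged from -0.40 to -0.19 for PHO84, -0.38 to -0.32 for PHO3, -0.76 to -0.42 for PHO11 and -0.68 to -0.53 for PHO12. SPL2 ranged from -0.17 to 0.034 and was at 0.034 without array 3 and 0.012 without array 4. PHO5, VTC1, VTC3 and VTC4 stayed below 0, and the median of the 9 ranged from -0.28 to -0.14. Over all alternatives but the turned one, the limma adjusted p of PHO12 ranged from 0.00184 to 0.179 and that of PHO11 from 0.00652 to 0.228. With arrays 2 and 4 turned, where the mean is the dye effect, the limma adjusted p was 0.27 and 0.538. The treated and untreated parts of a culture are paired within each ratio, so no further pairing was fitted. Signal over background cannot be read from ratios, and 2 cultures limit what can be called.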

Other observations

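Some phosphate genes without 4 values had ratios of large size, given as values and chosen after they were seen. PHO2, coding for the factor that acts with Pho4, gave 1.96 on array 3 and -0.85 on array 4. SYG1, coding for a membrane protein with an SPX domain, gave -1.58, -0.85 and 0.14 on arrays 2 to 4. VTC5, coding for a further subunit of the VTC complex, gave -0.67 and -0.55 on arrays 3 and 4. The genes on either side of SPL2, YCK1 and ARO9, were above 0 on all 4 arrays, at 0.15 to 0.78 and 0.15 to 0.93, whereas SPL2 itself lay between -0.27 and 0.18.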
